A study of Pistacia vera with 20 samples.

Results

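The genes described here are 10 gene models of pistachio, Pistacia vera, whose deposited descriptions name enzymes and transporters of suberin, out of 39783 genes in the table. They were picked by gene identifier among genes with such descriptions, and 12 other genes share a protein name with one of them. The choice was made with earlier results of these data known. Shares and medians over all genes are therefore given for scale and are no independent test of the 10 genes. They cover omega-hydroxylation (CYP86A1 and CYP86B1), chain elongation (3-ketoacyl-CoA synthase 20), acyl reduction (fatty acyl-CoA reductase 3), glycerol acylation (GPAT5), ferulate transfer (omega-hydroxypalmitate O-feruloyl transferase) and export (ABCG1 and ABCG20). Each name is the best protein match in the deposited table, and all 10 matches were to Arabidopsis thaliana proteins. Suberin is a wall-bound polyester of long-chain fatty acid derivatives, glycerol and ferulate. Plants lay it down in the root endodermis, in bark and seed coats, and at wounded surfaces, where it seals tissue against loss of water and solutes. Its monomers are made in the cell by elongating and oxidising fatty acids, joined to glycerol or ferulate, and moved across the plasma membrane by half-size ABC transporters of the G family.

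Whole hulls (exocarp and mesocarp, the soft layers around the shell) were profiled by RNA sequencing of polyadenylated RNA. The trees were grown commercially in an orchard, and no treatment was recorded. The groups were tattered and intact hulls of the cultivar Golden Hills at 133 days post anthesis (n = 3 each), cracked and intact hulls of the cultivar Lost Hills at 133 days (n = 3 each), and intact hulls of Golden Hills and of Lost Hills at 91 days (n = 4 each). Tattered hulls came from Golden Hills and cracked hulls from Lost Hills, so the kind of split and the cultivar cannot be told apart. Replicates were labelled as biological, and 16116971 to 18609861 reads were assigned to genes in a library.

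Some libraries at 91 days held reads of genes particular to the other cultivar, most of all replicate 2 of both groups. A set of 14 genes had at least 5 FPKM in each Golden Hills library and at most 3 reads in each Lost Hills library at 133 days, and a median of at least 5 FPKM in Golden Hills at 91 days. All of them exceeded 3 reads in replicate 2 of Lost Hills, where they stood at 36.9% of the Golden Hills median (median over genes). Of 12 such genes of Lost Hills, 12 exceeded 3 reads in replicate 2 of Golden Hills, at 27.1%, and 11 in replicate 3, at 9.15%. Whether tissue or libraries were mixed was not tested. Replicate 1 of Lost Hills had 4 of the 14 genes above 3 reads, at 1.18%. Calls with age are also given without both replicate 2 libraries, and replicate 3 of Golden Hills was left out singly.

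The genes lay on 6 contigs of the assembly used by the authors, and positions are those of the deposited gene models, which give gene bounds without exons or untranslated regions. CYP86A1 (evm_TU_ptg000016l_840) spanned bases 9060092 to 9061633 of ptg000016l on the minus strand. In Arabidopsis it hydroxylates the end of long-chain fatty acids for root suberin. A pair of models was named CYP86B1, the Arabidopsis hydroxylase of very-long-chain acids: evm_TU_ptg000024l_567 (CYP86B1_567 below) at 5490959 to 5492834 of ptg000024l, and evm_TU_ptg000024l_917 (CYP86B1_917) at 9559244 to 9565758, both on the minus strand. The second model also carried a proteasome subunit domain, so its reads may belong in part to another gene.

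The 3-ketoacyl-CoA synthase KCS20 (evm_TU_ptg000022l_2119), which extends fatty acids to very long chains, lay at 26408439 to 26410869 of ptg000022l on the minus strand. Fatty acyl-CoA reductase 3 (FAR3, evm_TU_ptg000016l_179) lay at 2813786 to 2818869 of ptg000016l on the plus strand. Its Arabidopsis match makes primary alcohols for cuticular wax, while relatives of it make those of suberin. GPAT5 (evm_TU_ptg000009l_391), which attaches acyl chains to glycerol for suberin in Arabidopsis, lay at 2626367 to 2627961 of ptg000009l on the plus strand.

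A pair of models was named omega-hydroxypalmitate O-feruloyl transferase, the enzyme that joins ferulate to omega-hydroxy acids: evm_TU_ptg000019l_2938 (HHT_2938) at 28457736 to 28459751 of ptg000019l, and evm_TU_ptg000019l_1138 (HHT_1138) at 7445255 to 7447482, both on the plus strand. The transporter ABCG1 (evm_TU_ptg000009l_568), which takes part in suberin formation in Arabidopsis roots, lay at 3810482 to 3813122 of ptg000009l on the plus strand. ABCG20 (evm_TU_ptg000027l_639), needed with related transporters for a tight suberin barrier in Arabidopsis, lay at 4844532 to 4846933 of ptg000027l on the plus strand.

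**Figure D1:**
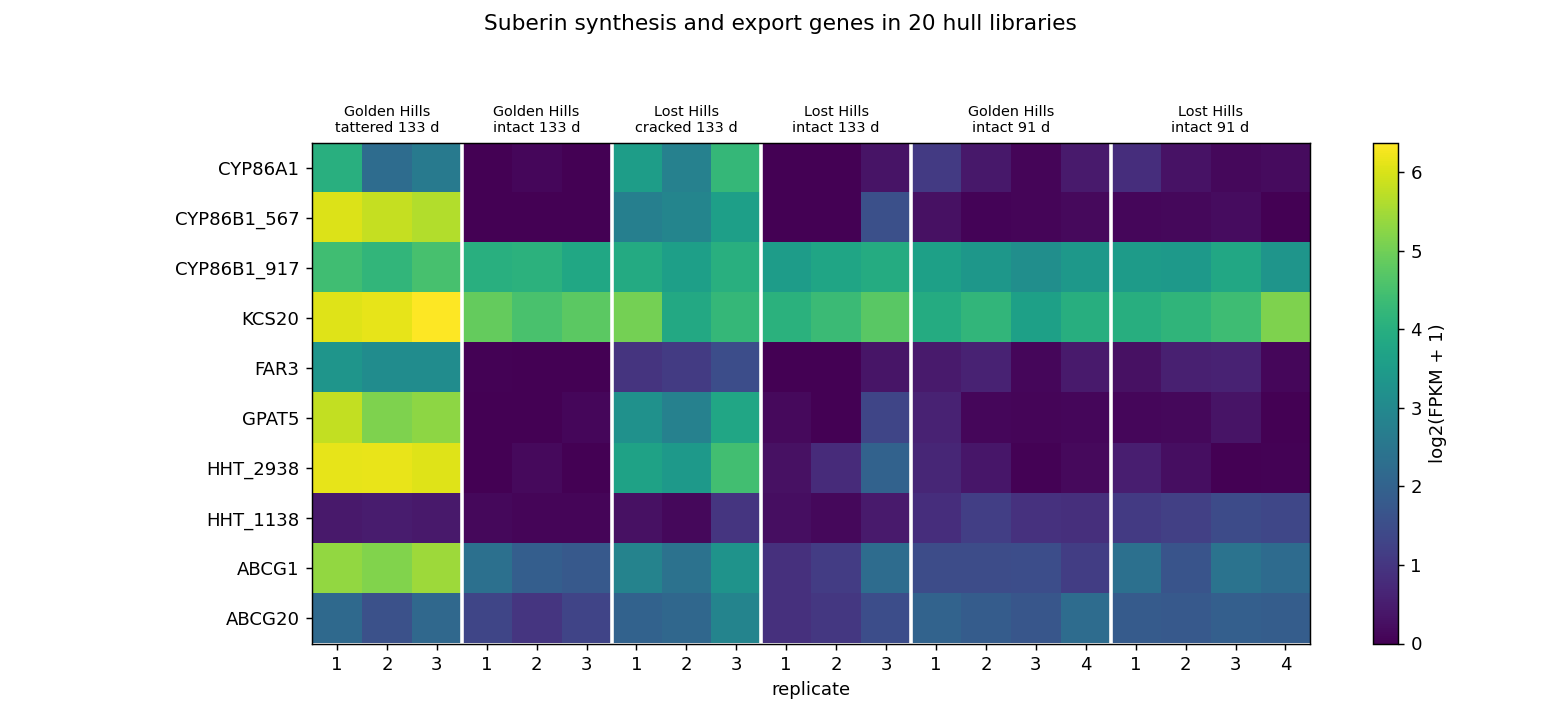
Level of each of the 10 genes (rows) in each of the 20 libraries (columns, by group and replicate), as log2 of FPKM plus 1 on the colour scale. CYP86A1, CYP86B1_567, FAR3, GPAT5 and HHT_2938 are higher in every tattered and cracked library than in the intact libraries of the same cultivar and age, with intact Lost Hills replicate 3 above the other intact libraries of its group, while CYP86B1_917 and KCS20 are at 1 FPKM or more in all 20 libraries.

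In tattered hulls 8 of the 10 genes rose against intact Golden Hills hulls of the same age and none fell, and 5 of them were close to absent from the intact hulls. Levels are given in FPKM (fragments scaled to gene length and library depth). Calls rest on limma, fitted on log2(FPKM + 1) over 19716 tested genes, with a Benjamini-Hochberg adjusted p below 0.05. Of all genes tested, 16.6% were called in this comparison in either direction and 9.29% were called higher. That direction depended on scaling for the whole table, with 1831 calls higher and 1450 lower in FPKM but 1064 higher and 2993 lower in TPM, whereas 7 of the 10 genes were still called higher in TPM and none lower. The median log2 fold change of the 10 genes was 3.04, against 0.01 for all genes tested, and does not depend on the bound set for a gene without reads in intact hulls, which lies above it. For each of the 10 genes the 3 tattered libraries lay above the 3 intact ones, which was the case for 18.9% of all genes tested. Without a filter on low values the same comparison also called 8 genes higher, which does not undo the choice of the genes. In bulk tissue, fewer cells of a type and less RNA per cell cannot be told apart.

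Among the hydroxylases, CYP86A1 had 15.3, 3.77 and 5.06 FPKM in tattered hulls, against 0, 0.0784 and 0 FPKM in intact hulls. The groups did not overlap, and the first tattered library was far above the other two. Intact Golden Hills hulls held 2 reads of this gene in all, so the ratio of reads summed over each group and scaled to depth was 298, with an exact 95% interval of 82.0 to 2464 for counting error alone. Its log2 fold change was 2.92 (SE 0.39, adjusted p = 6.91e-05).

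CYP86B1_567 had 64.3, 54.6 and 48.8 FPKM in tattered hulls and no read in any of the 3 intact libraries. It was at least 1301-fold higher, taking 3 reads over the group as the limit that a count of 0 allows. Its log2 fold change was 5.82 (SE 0.30, adjusted p = 5.76e-10). The other copy behaved differently: CYP86B1_917 had 20.2, 17.4 and 22.1 FPKM in tattered hulls, against 15.2, 16.1 and 12.8 FPKM in intact hulls. These ranges did not overlap, but the log2 fold change of 0.41 (SE 0.16) did not pass the test (adjusted p = 0.0830).

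For chain elongation, KCS20 had 65.3, 68.7 and 81.7 FPKM in tattered hulls, against 28.1, 22.3 and 26.1 FPKM in intact hulls. It was already well expressed in intact hulls, and rose by a log2 fold change of 1.46 (SE 0.28, adjusted p = 0.00227). The reductase FAR3 had 9.07, 7.55 and 7.56 FPKM in tattered hulls, against 0.0332, 0 and 0 FPKM in intact hulls. Its single read in intact hulls put the ratio of summed, depth-scaled reads at 752, with an exact 95% interval of 135 to 29758. Its log2 fold change was 3.16 (SE 0.18, adjusted p = 1.63e-09).

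GPAT5 had 54.5, 34.4 and 38.2 FPKM in tattered hulls, against 0, 0 and 0.0847 FPKM in intact hulls. The intact libraries held 2 reads, the ratio of summed, depth-scaled reads was 1499 (exact 95% interval 414 to 12381), and the log2 fold change was 5.37 (SE 0.29, adjusted p = 1.02e-09). HHT_2938 had 69.5, 70.5 and 66.1 FPKM in tattered hulls, the narrowest relative spread of the genes that rose, against 0, 0.126 and 0 FPKM in intact hulls. Its log2 fold change of 6.07 (SE 0.32, adjusted p = 8.13e-10) was the largest of the 10 genes at the pseudocount of 1, although CYP86B1_567 has no reads in intact hulls and its ratio is known only as a lower bound. The other transferase, HHT_1138, stayed low, with 0.352, 0.407 and 0.362 FPKM in tattered hulls against 0.106, 0.0663 and 0.0684 FPKM in intact hulls, and was not called (log2 fold change 0.35, SE 0.19, adjusted p = 0.215).

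Of the transporters, ABCG1 had 39.1, 34.6 and 42.5 FPKM in tattered hulls, against 4.12, 2.75 and 2.43 FPKM in intact hulls. The ratio of its means was 12.5 and its log2 fold change was 3.29 (SE 0.30, adjusted p = 6.18e-07). ABCG20 had 3.50, 1.98 and 3.44 FPKM in tattered hulls, against 1.53, 0.982 and 1.48 FPKM in intact hulls. The groups did not overlap, and the gene was called with a log2 fold change of 0.75 (SE 0.23, adjusted p = 0.0306). That call was lost when any of 5 libraries was left out (tattered replicates 1 and 3, intact replicates 1, 2 and 3), with adjusted p between 0.0506 and 0.104, and over all alternatives adjusted p ran from 0.0146 to 0.104. The calls of the other 7 genes held when any of the 20 libraries was left out.

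In cracked hulls 7 of the 10 genes rose against intact Lost Hills hulls of the same age and none fell, while 1.56% of all genes tested were called in either direction and 1.48% were called higher. The genes called were CYP86A1, CYP86B1_567, FAR3, GPAT5, HHT_2938, ABCG1 and ABCG20, all of which were also called in tattered hulls. Of all genes tested, 1.01% were called higher in both comparisons. The median log2 fold change of the 10 genes was 1.31, against -0.01 for all genes tested. In those 7 genes the cracked libraries lay above the intact ones without overlap, as in 6.36% of all genes tested.

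CYP86A1 had 10.7, 5.94 and 18.1 FPKM in cracked hulls, against 0, 0 and 0.252 FPKM in intact hulls. It had the largest log2 fold change of the 10 genes in this comparison, 3.42 (SE 0.39, adjusted p = 6.36e-05). CYP86B1_567 had 5.73, 6.42 and 10.99 FPKM in cracked hulls, against 0, 0 and 1.91 FPKM in intact hulls, with a log2 fold change of 2.56 (SE 0.30, adjusted p = 7.90e-05). Both were detected in 1 intact Lost Hills library only, replicate 3.

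FAR3 had 0.931, 1.14 and 1.86 FPKM in cracked hulls, against 0, 0 and 0.286 FPKM in intact hulls, with a log2 fold change of 1.07 (SE 0.18, adjusted p = 0.00249). GPAT5 had 8.37, 5.95 and 12.6 FPKM in cracked hulls, against 0.111, 0 and 1.51 FPKM in intact hulls. Its log2 fold change was 2.77 (SE 0.29, adjusted p = 3.47e-05). HHT_2938 had 11.8, 9.93 and 20.7 FPKM in cracked hulls, against 0.227, 0.721 and 2.99 FPKM in intact hulls, and a log2 fold change of 2.83 (SE 0.32, adjusted p = 6.36e-05).

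The transporter ABCG1 had 6.20, 4.24 and 8.72 FPKM in cracked hulls, against 0.843, 1.18 and 3.77 FPKM in intact hulls. The gap between the groups was small, and the log2 fold change was 1.42 (SE 0.30, adjusted p = 0.0154). The call was lost without cracked replicate 3, intact replicate 1 or intact replicate 2, with adjusted p between 0.0742 and 0.130, and over all alternatives adjusted p ran from 0.000612 to 0.545. ABCG20 had 2.99, 3.40 and 6.31 FPKM in cracked hulls, against 0.859, 1.03 and 1.85 FPKM in intact hulls. It rose by a log2 fold change of 1.19 (SE 0.23, adjusted p = 0.00706), a call that was lost without cracked replicate 3 (0.92, adjusted p = 0.0555; 0.00380 to 0.401 over all alternatives).

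The remaining genes did not pass the test in cracked hulls. KCS20 had 31.8, 13.4 and 17.9 FPKM in cracked hulls, against 15.7, 19.2 and 25.6 FPKM in intact hulls, so that the ranges overlapped widely (log2 fold change -0.01, SE 0.28). CYP86B1_917 averaged 13.4 ± 2.13 FPKM in cracked hulls and 12.3 ± 1.84 FPKM in intact hulls (SD, n = 3 each). HHT_1138 averaged 0.424 ± 0.478 FPKM in cracked hulls and 0.213 ± 0.139 FPKM in intact hulls (SD, n = 3 each), the cracked mean resting on replicate 3 at 0.972 FPKM.

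In most of the 10 genes the third replicate was the highest library of each Lost Hills group at 133 days. Cracked replicate 3 was the highest of the cracked libraries in 9 of the 10 genes. The share was 32.5% over all genes tested and 85.2% over the 284 other genes called higher in cracked hulls. Intact replicate 3 was the highest intact library in 10 of the 10 genes, against 27.8% of all genes tested and 38.0% of those 284 genes. Intact replicate 1 was the lowest in 8 of the 10 genes, counting ties. The ties were CYP86A1, CYP86B1_567 and FAR3, which had no reads in intact replicate 2 either. Over all genes intact replicate 1 differed most from the others of its group, with a chi-square per gene of 62.0 and 49.9 against 15.1 between replicates 2 and 3. Without intact replicate 3 the same test called 7 of the 10 genes, and without cracked replicate 3 it called 5. What sets these libraries apart was not tested. A fit to the Lost Hills groups alone called none of the 10 genes and 4 of all genes tested, although 1311 of all genes had an unadjusted p under 0.05, and adjusted p of the 7 genes then ran from 0.125 to 0.545.

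**Figure D2:**
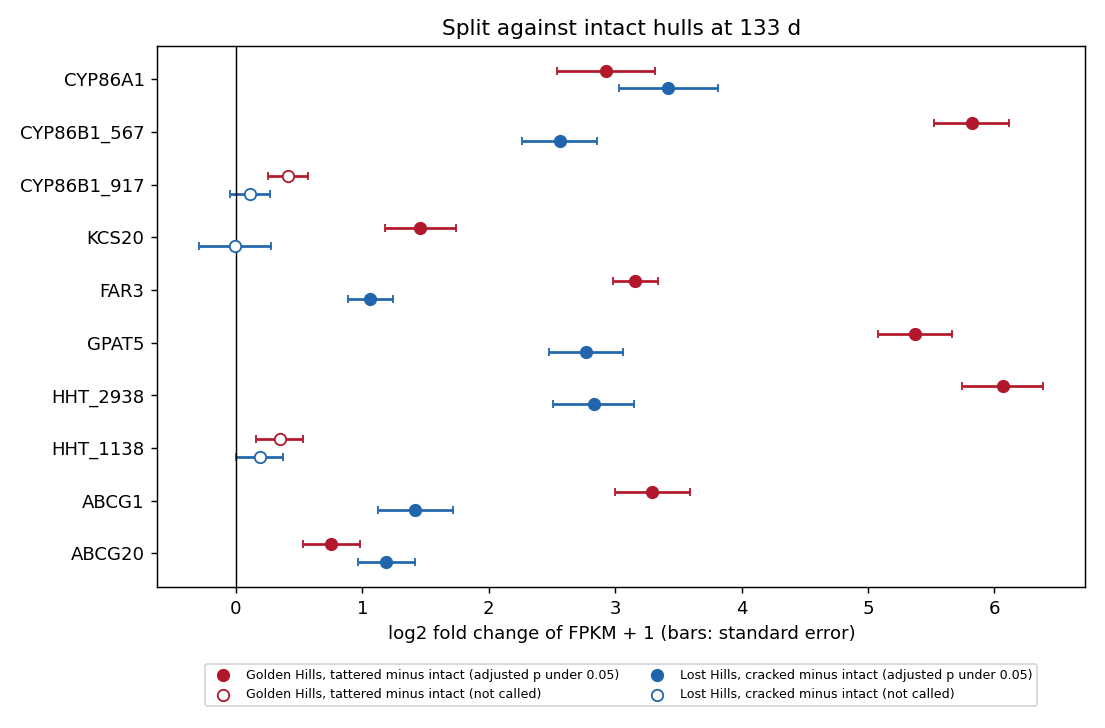
Log2 fold change of FPKM plus 1 for each gene in tattered minus intact Golden Hills hulls (red, upper point of each pair) and cracked minus intact Lost Hills hulls (blue, lower point) at 133 days, with standard errors as bars. Filled points passed an adjusted p of 0.05. CYP86B1_567, GPAT5 and HHT_2938 lie above 5 in the tattered comparison and between 2.56 and 2.83 in the cracked one.

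The change was larger in tattered than in cracked hulls for 5 of the 10 genes when the difference between both changes was tested, and smaller for none. Of all genes tested, 0.994% were called in this test and 0.771% had a larger change in tattered hulls. The differences in log2 fold change were 3.26 for CYP86B1_567 (SE 0.42, adjusted p = 0.000587), 3.23 for HHT_2938 (SE 0.46, adjusted p = 0.00102), 2.60 for GPAT5 (SE 0.41, adjusted p = 0.00263), 2.09 for FAR3 (SE 0.25, adjusted p = 0.000310) and 1.87 for ABCG1 (SE 0.42, adjusted p = 0.0378). In these genes the cracked mean was 13.8% to 21.2% of the tattered mean. The calls depended on the log scale: with a pseudocount of 0.1 in place of 1 only HHT_2938 was called, with adjusted p of 0.0924 to 0.190 for the other 4 genes, and with voom on recovered reads none was called (adjusted p 0.120 to 0.335). The call of ABCG1 was also lost when any of 10 libraries was left out, with adjusted p up to 0.0876 (0.00277 to 0.190 over all alternatives).

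CYP86A1, ABCG20 and HHT_1138 had higher means in cracked than in tattered hulls, but their ranges overlapped and no difference between their changes was called. HHT_1138 averaged 0.374 FPKM in tattered and 0.424 FPKM in cracked hulls, and its changes differed by 0.16 (SE 0.26, adjusted p = 0.839). CYP86A1 averaged 8.06 ± 6.34 FPKM in tattered hulls and 11.6 ± 6.12 FPKM in cracked hulls (SD, n = 3 each), with overlapping ranges, and its changes differed by -0.50 (SE 0.55, adjusted p = 0.733). ABCG20 averaged 2.98 ± 0.861 FPKM in tattered hulls and 4.23 ± 1.81 FPKM in cracked hulls (SD, n = 3 each), also with overlap, and its changes differed by -0.44 (SE 0.32, adjusted p = 0.567). For KCS20, called in tattered but not in cracked hulls, the difference of 1.46 (SE 0.40) did not pass the test (adjusted p = 0.0980). It did so without cracked replicate 1 (1.80, adjusted p = 0.0159), and over all alternatives adjusted p ran from 0.00900 to 0.215.

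**Figure D3:**
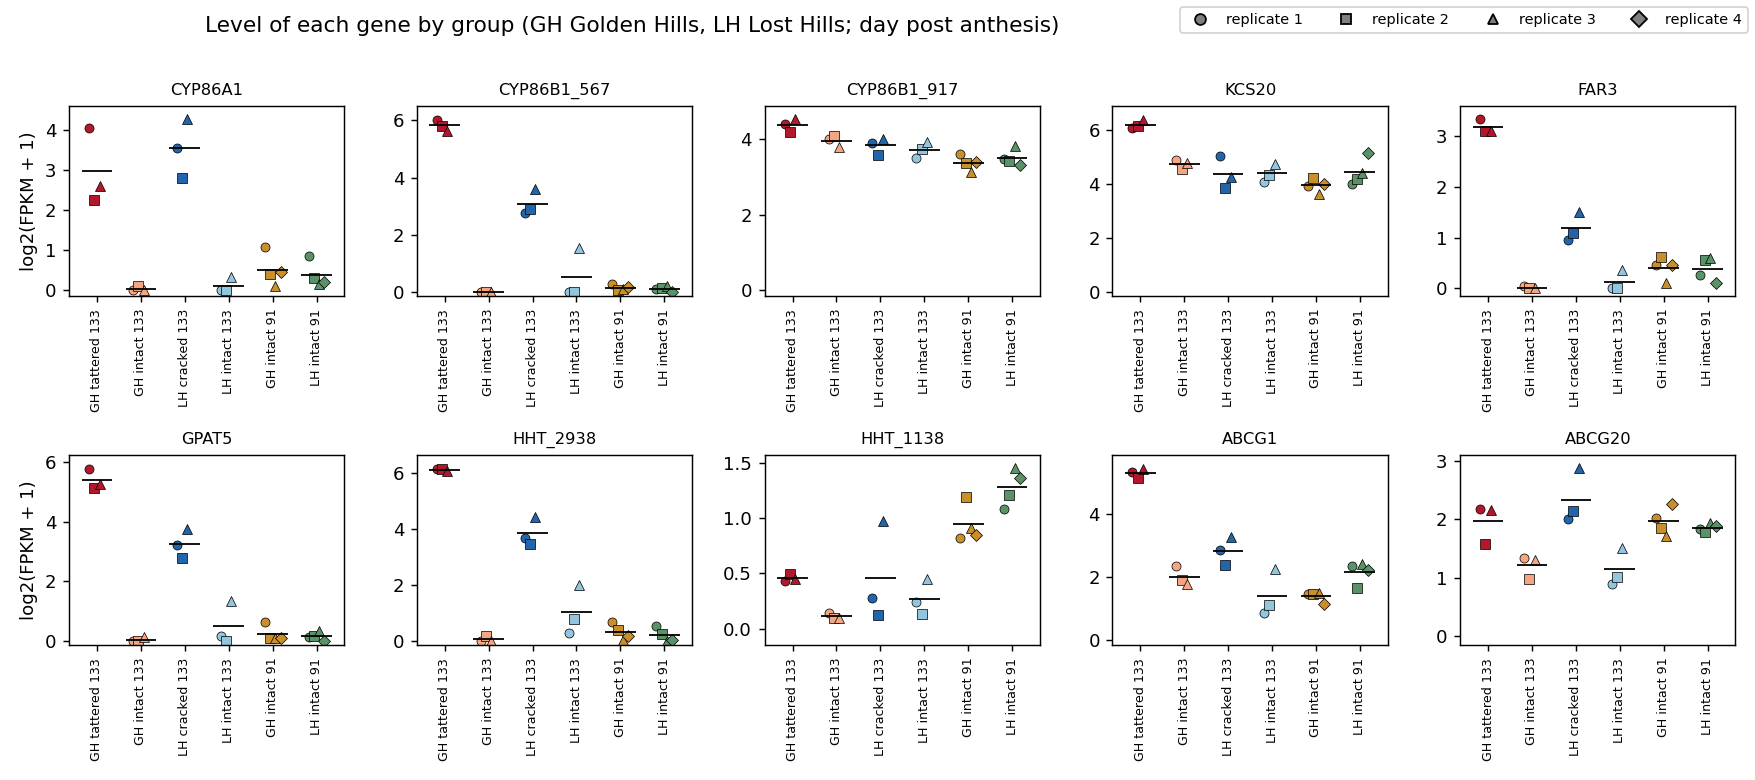
Each panel shows 1 gene as log2 of FPKM plus 1 by group, with a marker for each library (shape gives the replicate number) and a line at the group mean of the log values. In 7 of the 10 panels the tattered libraries lie above every library of the next highest group. HHT_1138 is highest in the 91-day groups instead.

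Ordered by mean level over the 6 groups, tattered Golden Hills hulls came first in 7 of the 10 genes, without overlap with the next group, and cracked Lost Hills hulls came first in CYP86A1 and ABCG20. In CYP86B1_567, FAR3, GPAT5 and HHT_2938 the cracked group came next and also stood clear of all intact groups. The 4 intact groups overlapped their neighbours in that order. In CYP86B1_917 and KCS20 the groups below the tattered hulls, cracked hulls included, overlapped their neighbours. CYP86B1_567 reached at most 0.215 FPKM in a Golden Hills library and 0.154 FPKM in a Lost Hills library at 91 days. GPAT5 reached 0.530 FPKM in Golden Hills and 0.266 FPKM in Lost Hills, and HHT_2938 reached 0.598 FPKM in Golden Hills and 0.455 FPKM in Lost Hills. FAR3 averaged 0.341 ± 0.189 FPKM in Golden Hills and 0.321 ± 0.209 FPKM in Lost Hills at 91 days (SD, n = 4 each). CYP86A1 was highest in replicate 1 of both cultivars at that age, at 1.11 FPKM in Golden Hills and 0.791 FPKM in Lost Hills, and the other 91-day libraries held 0.0671 to 0.366 FPKM.

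Between 91 and 133 days, 2 of the genes rose and 2 fell in intact Golden Hills hulls, in a comparison that called 45.3% of all genes tested, 23.2% higher and 22.1% lower at 133 days. CYP86B1_917 averaged 14.7 ± 1.66 FPKM at 133 days (SD, n = 3) and 9.51 ± 1.42 FPKM at 91 days (SD, n = 4), a log2 fold change of 0.58 (SE 0.15, adjusted p = 0.00382). KCS20 averaged 25.5 ± 2.94 FPKM at 133 days (n = 3) and 14.4 ± 2.48 FPKM at 91 days (n = 4), a log2 fold change of 0.79 (SE 0.26, adjusted p = 0.0218), and lost its call without intact replicate 1 or 3 at 133 days or replicate 3 at 91 days (adjusted p 0.0584 to 0.0705; 0.00407 to 0.0705 over all alternatives). HHT_1138 averaged 0.0802 ± 0.0223 FPKM at 133 days and 0.935 ± 0.238 FPKM at 91 days, and fell by 0.83 on the log2 scale (SE 0.17, adjusted p = 0.000792). It passed the filter on low values through 91-day libraries alone, so the filter favoured a fall. ABCG20 averaged 1.33 ± 0.303 FPKM at 133 days and 2.94 ± 0.658 FPKM at 91 days, and fell by 0.75 (SE 0.21, adjusted p = 0.00788). FAR3 averaged 0.0111 ± 0.0191 FPKM at 133 days and 0.341 ± 0.189 FPKM at 91 days without overlap, and its log2 fold change of -0.40 did not pass the test (adjusted p = 0.0632). It was called lower in 6 of 31 alternatives, with adjusted p of 0.00898 at a pseudocount of 0.1 and 0.0196 with voom (0.00898 to 0.171 over all alternatives). CYP86A1 was called lower at a pseudocount of 0.1 alone (adjusted p = 0.0333; 0.0333 to 0.583 over all alternatives). ABCG1, at 0.61 (adjusted p = 0.0857), was called higher in 3 of 32 alternatives, with adjusted p from 0.0266 to 0.281 over all alternatives. The 4 genes that passed the test remained called without replicate 2 of both 91-day groups, with adjusted p between 0.00464 and 0.0240.

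In intact Lost Hills hulls 1 gene rose and 3 fell with age, where 31.7% of all genes tested were called, 16.0% higher and 15.7% lower at 133 days. HHT_1138 averaged 0.213 ± 0.139 FPKM at 133 days and 1.44 ± 0.280 FPKM at 91 days, and fell by 1.01 on the log2 scale (SE 0.17, adjusted p = 0.000310). ABCG20 averaged 1.25 ± 0.531 FPKM at 133 days and 2.62 ± 0.167 FPKM at 91 days, and fell by 0.71 (SE 0.21, adjusted p = 0.0162), a call lost without intact replicate 1 or 2 at 133 days (adjusted p 0.0718 and 0.0658; 0.00657 to 0.0718 over all alternatives). HHT_1138 and ABCG20 thus fell in both cultivars, and without overlap between ages. Taking each cultivar alone, 22.6% of all genes tested did so in Golden Hills and 20.6% in Lost Hills. The share that did so in both was not computed. HHT_1138 was tested only because of the 91-day libraries, where it is high, so its fall is no independent result.

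The remaining calls in Lost Hills were weaker. ABCG1 averaged 1.93 ± 1.60 FPKM at 133 days and 3.58 ± 1.00 FPKM at 91 days, with overlap, and fell by 0.75 (SE 0.28, adjusted p = 0.0487). It lost the call in 15 of 20 fits with 1 library left out, with adjusted p up to 0.234 (0.00239 to 0.504 over all alternatives). HHT_2938 averaged 1.31 ± 1.47 FPKM at 133 days and 0.168 ± 0.209 FPKM at 91 days and rose by 0.82 (SE 0.30, adjusted p = 0.0463), again with overlap. It also lost the call in 15 of 20 such fits, and without intact replicate 3 at 133 days its change was 0.33 (adjusted p = 0.351; 0.000369 to 0.351 over all alternatives). Without replicate 2 of both 91-day groups HHT_2938 was not called (adjusted p = 0.0860), and the other 3 genes were called with adjusted p of at most 0.0331. No gene passed the test of a difference in the age change between the cultivars, in which 3.29% of all genes tested were called. At an unadjusted p under 0.05 there were 3 of the 10 genes and 3630 of all genes, by limma. ABCG1 did pass it without intact Lost Hills replicate 3 at 133 days (1.77, adjusted p = 0.00700) and without Lost Hills replicate 2 at 91 days (1.52, adjusted p = 0.0442), with adjusted p of 0.00700 to 0.254 over all alternatives.

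Between intact hulls of the cultivars, 1 of the 10 genes was called at 133 days. HHT_2938 was lower in Golden Hills, where it averaged 0.0421 ± 0.0729 FPKM, than in Lost Hills, where it averaged 1.31 ± 1.47 FPKM (SD, n = 3 each; log2 fold change -0.97, SE 0.32, adjusted p = 0.0472). In that comparison 16.8% of all genes tested were called and 7.91% were lower in Golden Hills. The call was lost in 16 of 20 fits with 1 library left out, and the log2 fold change was -0.48 without intact Lost Hills replicate 3 (adjusted p = 0.237; 0.000488 to 0.237 over all alternatives). Without that library ABCG1 was called higher in Golden Hills (1.01, adjusted p = 0.0150; up to 0.956 over all alternatives). At 91 days none of the 10 genes was called by limma, against 5.10% of all genes tested, and 1 had an unadjusted p under 0.05, against 3279 of all genes. That gene was ABCG1, which averaged 1.67 ± 0.288 FPKM in Golden Hills and 3.58 ± 1.00 FPKM in Lost Hills (SD, n = 4 each; log2 fold change -0.76, adjusted p = 0.111). It was called without intact Lost Hills replicate 3 at 133 days or without Lost Hills replicate 2 at 91 days (adjusted p = 0.0340 and 0.0495; 0.0340 to 0.284 over all alternatives). Without both replicate 2 libraries the averages of ABCG1 were 1.63 ± 0.342 FPKM in Golden Hills and 4.06 ± 0.351 FPKM in Lost Hills (SD, n = 3 each).

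The deposited table holds 12 other genes with the same protein name as one of the 10, and 3 of them passed the filter on low values. Near KCS20 on ptg000022l lay another gene of that name, evm_TU_ptg000022l_2116 (26352414 to 26355239). It was lower than 1 FPKM on average in all groups at 133 days and averaged 7.14 FPKM in Golden Hills and 7.55 FPKM in Lost Hills at 91 days. A further gene named CYP86B1, evm_TU_ptg000007l_1229, averaged 0.928 FPKM in tattered and 1.84 FPKM in intact Golden Hills hulls, 0.128 FPKM in cracked and 0.0597 FPKM in intact Lost Hills hulls, and was listed at 0 at 91 days. Between these 2 KCS20 genes lay evm_TU_ptg000022l_2118, also named KCS20, which had at most 0.0507 FPKM in a library. A further ABCG1 gene, evm_TU_ptg000013l_1094, averaged 46.7 FPKM in tattered and 48.3 FPKM in intact Golden Hills hulls, and 47.4 FPKM in cracked and 47.2 FPKM in intact Lost Hills hulls at 133 days. At 91 days it was higher, at 175 FPKM in Golden Hills and 114 FPKM in Lost Hills. The neighbours named like ABCG20 (evm_TU_ptg000027l_640) and HHT_1138 (evm_TU_ptg000019l_1140) had no read in any library. How reads shared between such copies were counted is not given in the sources used here, so values of the copies are uncertain to that extent.

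Over the 20 libraries, log2(FPKM + 1) of CYP86B1_567, FAR3, GPAT5, HHT_2938 and ABCG1 followed the mean of the other 9 genes with Pearson r between 0.936 and 0.958. The value was 0.818 for CYP86A1, 0.694 for KCS20, 0.667 for CYP86B1_917, 0.496 for ABCG20 and -0.158 for HHT_1138. These correlations are descriptions: all share the same libraries, and the split hulls drive the range. Outside the 10 genes, 5 had the profile closest to their mean. They were a gene with an alpha/beta hydrolase fold (evm_TU_ptg000013l_1792, r = 0.980), a gene with an Ole e I like domain (evm_TU_ptg000017l_2601, r = 0.979), uclacyanin 1 (evm_TU_ptg000004l_83, a plastocyanin-like copper protein, r = 0.970), dirigent protein 20 (evm_TU_ptg000008l_408, r = 0.970) and a palmitoyl-acyl carrier protein thioesterase (evm_TU_ptg000019l_1123, which releases palmitate in plastids, r = 0.966). Uclacyanin 1 averaged 55.8 ± 12.7 FPKM in tattered hulls, where intact Golden Hills hulls were listed at 0, and 8.45 ± 4.67 FPKM in cracked hulls, against 1.02 ± 1.77 FPKM in intact Lost Hills hulls (SD, n = 3 each). The thioesterase averaged 6.45 ± 1.80 FPKM in tattered hulls, where intact Golden Hills hulls were listed at 0, and 2.73 ± 1.64 FPKM in cracked hulls, against 0.159 ± 0.236 FPKM in intact Lost Hills hulls.

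Other genes with names that belong to steps of the pathway were followed in lists, 293 genes in all without the 10, of which 164 were tested. Most lists take whole families by protein name and so hold genes with other roles in Arabidopsis, such as CYP94C1, GPAT8 and ABCG29 below. The lists too were chosen with earlier results of these data known, so shares over all genes stand for scale and are no independent test. In tattered hulls 43 rose (26.2%, against 9.29% of all genes tested) and 3 fell, with a median log2 fold change of 0.23. In cracked hulls 19 rose (11.6%, against 1.48% of all genes tested) and none fell, with a median of 0.11. The steps differed in their counts, which stand beside the same shares over all genes. Of 19 tested cytochrome P450 genes of the families that oxidise fatty acids, 8 rose in tattered hulls and none in cracked hulls. Among them was CYP94C1 (evm_TU_ptg000016l_186), an oxidase of the hormone jasmonoyl-isoleucine in Arabidopsis, with 9.44 ± 4.02 FPKM in tattered and 0.110 ± 0.157 FPKM in intact hulls (log2 fold change 3.16, SE 0.41, adjusted p = 4.84e-05). Of 17 elongation genes 3 rose in tattered hulls, with KCS1 (evm_TU_ptg000019l_614) at 27.9 ± 3.78 FPKM in tattered and 9.14 ± 3.15 FPKM in intact hulls (1.56, SE 0.49, adjusted p = 0.0389), and none was called in cracked hulls.

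Of 10 tested glycerol-3-phosphate acyltransferases, 2 rose in tattered and 1 in cracked hulls. GPAT8 (evm_TU_ptg000019l_418), which serves cutin in Arabidopsis, averaged 22.2 ± 1.96 FPKM in tattered and 4.62 ± 0.529 FPKM in intact hulls (2.04, SE 0.15, adjusted p = 5.70e-08). None of 8 genes for acyl activation and reduction and none of 13 acyltransferases of the aromatic step was called in either direction in the split comparisons. Of 28 other ABCG transporters 5 rose and 2 fell in tattered hulls, and none was called in cracked hulls. ABCG23 (evm_TU_ptg000008l_878) averaged 11.2 ± 0.942 FPKM in tattered and 3.23 ± 0.292 FPKM in intact hulls (1.52, SE 0.16, adjusted p = 4.16e-06), and ABCG29 (evm_TU_ptg000007l_1837), a monolignol transporter in Arabidopsis, averaged 2.59 ± 0.989 FPKM in tattered and 6.21 ± 3.09 FPKM in intact hulls (-0.96, SE 0.25, adjusted p = 0.0152).

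The lists for polymer assembly and for phenolic supply had 10 and 7 of the 19 calls in cracked hulls. Of 43 assembly genes (GPI-anchored lipid transfer proteins, anionic peroxidases and relatives of Casparian strip proteins) 16 rose and 1 fell in tattered hulls, and 10 rose in cracked hulls. LTPG5 (evm_TU_ptg000019l_3180), of a family that carries lipids to the cell surface, averaged 402 ± 46.3 FPKM in tattered and 1.56 ± 0.680 FPKM in intact hulls (7.32, SE 0.47, adjusted p = 7.42e-09). A neighbouring LTPG5 gene (evm_TU_ptg000019l_3175) averaged 28.2 ± 14.8 FPKM in cracked and 1.06 ± 1.67 FPKM in intact hulls (4.00, SE 0.50, adjusted p = 0.000127). Each copy was also higher in the other kind of split hull. The neighbour averaged 82.3 ± 30.6 FPKM in tattered hulls and was listed at 0 in intact Golden Hills hulls. The first copy averaged 26.9 ± 4.69 FPKM in cracked and 3.06 ± 3.98 FPKM in intact Lost Hills hulls. The gene that fell, CASP-like protein 4C1 (evm_TU_ptg000009l_469), averaged 16.5 ± 1.21 FPKM in tattered and 28.8 ± 2.31 FPKM in intact hulls (-0.77, SE 0.18, adjusted p = 0.00786).

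Of 25 phenolic supply genes 8 rose in tattered and 7 in cracked hulls, and none fell. Phenylalanine ammonia-lyase (evm_TU_ptg000009l_700), the entry enzyme of phenylpropanoid synthesis, averaged 34.5 ± 9.70 FPKM in tattered and 1.40 ± 0.724 FPKM in intact Golden Hills hulls (3.90, SE 0.50, adjusted p = 4.34e-05). It averaged 46.0 ± 39.3 FPKM in cracked and 2.44 ± 2.07 FPKM in intact Lost Hills hulls (3.64, SE 0.50, adjusted p = 0.000336).

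**Figure D4:**
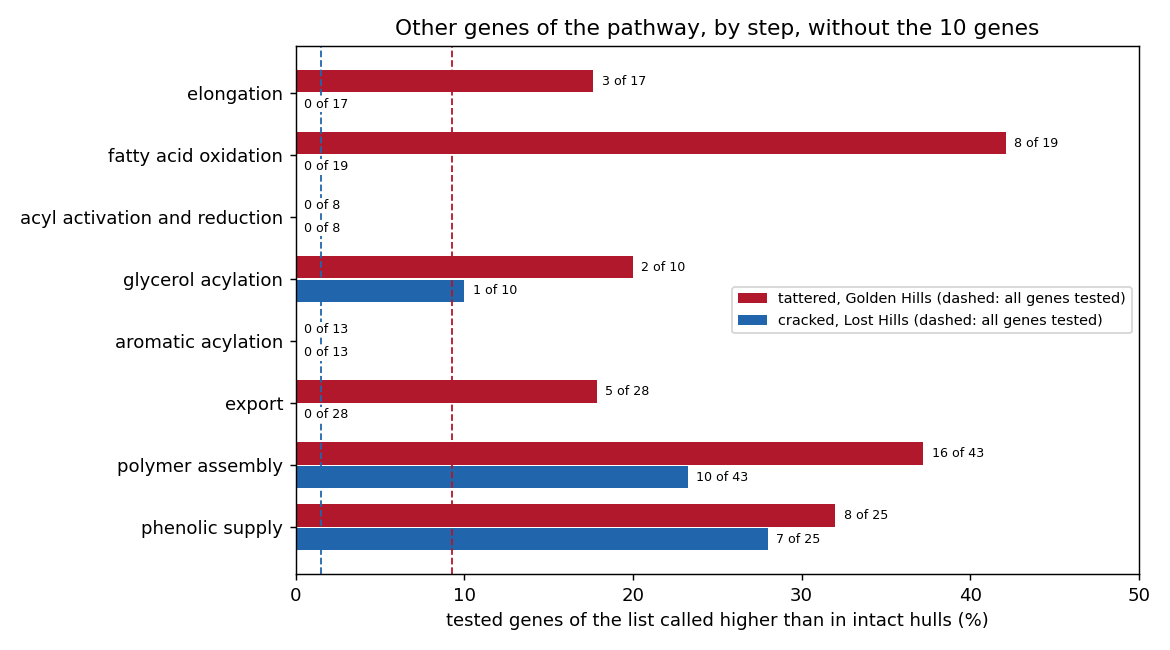
Share of tested genes of each pathway list called higher in tattered Golden Hills hulls (red, upper bar) and in cracked Lost Hills hulls (blue, lower bar) than in intact hulls, with the counts written beside the bars and without the 10 genes. Dashed lines mark the share over all genes tested, 9.29% in tattered and 1.48% in cracked hulls; in cracked hulls 3 of the 8 lists drawn have a call, and the regulators, of which 1 gene was tested, are not drawn.

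Of 8 genes named as MYB factors that act on suberin or the Casparian strip in Arabidopsis, 1 was tested, and 7 did not pass the filter. The tested gene, a MYB36 (evm_TU_ptg000027l_842), averaged 8.96 ± 1.15 FPKM in tattered and 2.83 ± 0.713 FPKM in intact Golden Hills hulls (1.39, SE 0.26, adjusted p = 0.00155). It averaged 5.44 ± 2.20 FPKM in cracked and 1.80 ± 0.777 FPKM in intact Lost Hills hulls (1.17, SE 0.26, adjusted p = 0.0207). Of the untested genes, MYB92 (evm_TU_ptg000017l_32) reached 1.46 FPKM and a MYB93 (evm_TU_ptg000007l_1352) 1.55 FPKM, both in cracked replicate 3, and another MYB93 (evm_TU_ptg000001l_3113) reached 1.29 FPKM in tattered replicate 1. Summed over each group at 133 days, MYB92 had 4 reads in tattered and 3 in intact Golden Hills hulls. In cracked Lost Hills hulls it had 49 and in intact ones 2. In the same order evm_TU_ptg000007l_1352 had 17, 0, 43 and 0 reads, and evm_TU_ptg000001l_3113 had 29, 2, 31 and 0. An untested MYB36 (evm_TU_ptg000016l_325) had 39, 0, 28 and 3. MYB41 (evm_TU_ptg000010l_134) and MYB39 (evm_TU_ptg000019l_3365) did not exceed 0.0867 and 0.0547 FPKM in any library.

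Summed levels of marker lists for other tissues overlapped between split and intact hulls of each cultivar, except for xylem in Golden Hills. By its definition the list for epidermis and cuticle shares genes with the pathway lists, GPAT8 among them, so it is not independent of them. Of 11 tested genes of epidermis and cuticle, 2 were called higher in tattered (18.2%) and 1 in cracked hulls (9.09%). For green parenchyma it was 2 (8.70%) and 1 (4.35%) of 23 tested genes, and for kernel 1 of 12 in each (8.33%). None of 3 tested genes of xylem or 15 of phloem was called. Of all genes tested, 9.29% were called higher in tattered and 1.48% in cracked hulls. No marker gene was called lower. The 33 genes of epidermis and cuticle, 11 of them without a read anywhere, summed to 823 to 1128 FPKM in tattered and 1033 to 1158 FPKM in intact Golden Hills hulls, and to 262 to 500.1 FPKM in cracked and 206 to 555 FPKM in intact Lost Hills hulls. The 7 xylem and lignified tissue genes summed to at most 2.17 FPKM in tattered and 1.52 FPKM in intact Golden Hills hulls, and to at most 1.94 FPKM in cracked and 1.22 FPKM in intact Lost Hills hulls. The 27 phloem genes summed to 522 to 608 FPKM in tattered and 434 to 600.1 FPKM in intact Golden Hills hulls, and to 656 to 804 FPKM in cracked and 785 to 888 FPKM in intact Lost Hills hulls. The 27 genes of green parenchyma, of which 23 passed the filter, summed to 364 to 560 FPKM in tattered and 401 to 490.03 FPKM in intact Golden Hills hulls, and to 454 to 570.2 FPKM in cracked and 472 to 590 FPKM in intact Lost Hills hulls.

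The 24 kernel genes summed to 19.1 to 29.8 FPKM in tattered and 14.9 to 24.4 FPKM in intact Golden Hills hulls, and to 24.7 to 103 FPKM in cracked and 28.5 to 46.1 FPKM in intact Lost Hills hulls. None of the 4 genes named Casparian strip membrane protein, which mark an endodermis, passed the filter, 1 of them had no read in any library, and their sum reached at most 0.990 FPKM. The part of tissue composition in the results for the 10 genes was not tested.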

How the data were processed

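Polyadenylated RNA of whole hulls was sequenced from 20 libraries in 6 groups taken from the labels. The authors deposited FPKM values per gene and library, with gene lengths and positions. Per the submitters' processing notes, HISAT2 2.0.5, StringTie 1.3.3b and featureCounts 1.5.0-p3 were used; their roles and the genome build are not given in the sources used here. One line of the table was empty, leaving 39783 genes on 427 contigs, 24977 with a protein name. None matched the RefSeq gene table at hand (0 identifiers), so names are the deposited ones. Undoing the scaling by gene length and depth gave whole reads for 100.0% of values (tolerance 0.01), 16116971 to 18609861 per library, with a median of 17244126.5. Intervals and floors from these reads cover counting error only, since reads carried no molecular identifiers.

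The filter kept 19716 genes that reached 1 FPKM in 3 or more libraries. All 20 libraries in 6 groups entered one linear model of log2(FPKM + 1), tested in limma (version 3.58.1, R 4.3.3) with a mean-variance trend, and tables were made in Python 3.11.15 with pandas 2.3.3. The pseudocount of 1 understates changes of low genes. Tests were two-sided, with Benjamini-Hochberg adjustment over all genes tested and a threshold of 0.05, and the procedure was tested on simulated data. All 10 genes passed the filter. CYP86A1, CYP86B1_567, FAR3, GPAT5 and HHT_2938 reached 1 FPKM in split hulls and in at most 1 other library each, so that they were tested because of the groups where they are high. HHT_1138 passed through 91-day libraries alone. Ratios against a group without reads took 3 reads over the group.

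The 10 genes and the lists were chosen with earlier results of these data known. Other genes were named by rule: per split comparison and list, the called gene with the largest rise and the one with the largest fall among those whose groups did not overlap and whose higher group averaged 5 FPKM or more, and the 5 genes whose profile correlated best with the mean of the 10. Library pairs within groups had a chi-square per gene of 8.44 to 62.0 over 24 pairs, so none was a copy. Alternatives were other pseudocounts, filters, scalings and weights, voom on recovered reads, only the groups compared, a replicate block, and each library left out.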

Additional observations from a re-analysis of the deposited data

Results flagged for a closer look

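In intact Golden Hills hulls at 91 days, GPAT5 in replicate 1 stood at 0.53 FPKM, far above the other 3 libraries of the group (0.0703 to 0.0766 FPKM), and ABCG1 in replicate 4 stood at 1.24 FPKM, below the other 3 (1.77 to 1.86 FPKM). These were 2 of 20 gene and group combinations of 4 libraries checked for a library apart from the rest, where chance gives about 1 in 20.

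The change in tattered hulls exceeded that in cracked hulls, by a test of the difference in limma, for CYP86B1_567 (3.26 on the log2 scale), HHT_2938 (3.23), GPAT5 (2.60), FAR3 (2.09) and ABCG1 (1.87). Of these calls only that of HHT_2938 held with a pseudocount of 0.1, and none held with voom on recovered reads.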

How the results depend on the processing

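No direction of a called change reversed under any alternative. Of the gene-level results, 2381 kept their side of the threshold, 122 lost a call and 25 gained one; causes were not tested. The number of the 10 genes called, reported value in brackets, changed by more than 1.5 times as follows. With a mean of at least 5 FPKM only 6 of them were tested, and 5 (8) were called in tattered hulls, 4 (7) in cracked hulls, 3 (5) in the difference between both, 2 (4) with age in Golden Hills, 1 (4) with age in Lost Hills and 0 (1) between cultivars at 133 days. With only the groups compared it was 0 in cracked hulls, 2 with age in Lost Hills and 0 between cultivars at 133 days. The difference between both splits had 1 call at a pseudocount of 0.1 and 0 with voom on recovered reads. Requiring a log2 fold change of 1 or more in size left 0 with age in Golden Hills and 1 in Lost Hills, and no filter left 2 in Lost Hills. Between cultivars at 133 days it was 0 with that fold threshold, without a filter, with voom and without replicate 2 of both 91-day groups, and 3 with array weights, which also gave 1 in the test of unequal age changes.

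Leaving out 1 library in turn gave 7 to 8 in tattered hulls, 5 to 7 in cracked hulls, 4 to 6 in the difference between both, 3 to 5 with age in Golden Hills, 1 to 4 with age in Lost Hills, 0 to 1 in the test of unequal age changes, and 0 to 1 between cultivars at either age. Pairing by replicate number was not shown, with correlations of deviations from -0.174 to 0.223. All were positive between tattered and intact Golden Hills hulls (0.223, 0.152 and 0.078). The labels do not say whether libraries of equal number share a tree. Fitted to the compared groups with a replicate block, limma called 8 in tattered hulls, 0 in cracked hulls, 4 in the difference between both, 1 with age in Lost Hills and 0 between cultivars at 133 days.

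Under TPM the median change over all genes was -0.13 in tattered hulls, -0.10 for the difference between both splits, -0.18 with age in Golden Hills, -0.12 for unequal age changes and -0.11 between cultivars at 133 days. Calls over all genes, higher and lower, then were 106 and 105 for the difference between both splits (reported 152 and 44), 3265 and 6123 with age in Golden Hills (reported 4566 and 4366), 289 and 468 for unequal age changes (reported 405 and 244) and 1200 and 2398 between cultivars at 133 days (reported 1751 and 1559). In tattered hulls they were 1153 and 1864 with quantile normalization and 1422 and 1806 with library totals (reported 1831 and 1450). Over all genes, voom on recovered reads called 1661 higher and 1285 lower in tattered hulls and 219 and 9 in cracked hulls. Of the counts over all genes, 222 stayed within 1.5 times the reported one and 42 did not. Counting error limits low genes such as HHT_1138 at 133 days with 2 to 29 reads per library.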
